A study of Mus musculus with 9 samples.

Results

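The miR-23, miR-24 and miR-27 miRNAs are made from a pair of related gene clusters, and in these hippocampal cultures none of the 5 mature forms on the array changed detectably with NMDA or with bicuculline. The members were taken by their exact names on the array, mmu-miR-23a, mmu-miR-23b, mmu-miR-24, mmu-miR-27a and mmu-miR-27b, which are 5 of the 650 miRNAs that the array measures. All 5 were well above background on all 9 arrays.

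A miRNA is cut in steps from a hairpin in a longer transcript, and its seed, bases 2 to 8, pairs with target mRNAs and lowers their output. A hairpin yields a strand from each arm, and the strand that accumulates less is written with a star in the array's naming. In each of the clusters a miR-23, a miR-27 and a miR-24 hairpin lie close together and can be cut from a common primary transcript. The clusters are known from blood vessels, muscle, fat and immune cells, and in the brain they have been tied to astrocytes and to the control of apoptotic genes in neurons.

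The cultures were hippocampal neurons of C57BL/6 mice, prepared on postnatal day 1 and kept for 10 days in vitro. They were left untreated (control), treated with 20 μM NMDA for 4 h, or treated with 50 μM bicuculline for 4 h, with 3 arrays in each group. NMDA in the bath opens NMDA receptors inside and outside synapses and is toxic to neurons, whereas bicuculline blocks GABA-A receptors and so raises synaptic activity. These doses and times are those of the sample labels. The legend of the study's array table also gives 20 μM NMDA, whereas its results text gives a higher dose. Its methods allow both and describe a shorter NMDA exposure followed by washing. The exact exposure behind the arrays is therefore not settled. Replicates came from independent cell preparations, and no step that removes glia is described.

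The sequences are shown because they set which members share targets and how alike the paralogs of the clusters are. They are the mature RNAs of RefSeq (GRCm38.p6), with the seed in capitals, and 4 of the 5 members were matched by name.
miR-23a: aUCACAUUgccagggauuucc
miR-27a: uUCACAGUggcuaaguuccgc
miR-27b: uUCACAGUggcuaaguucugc
miR-24: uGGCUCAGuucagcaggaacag

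miR-27a and miR-27b have the same seed and were identical at 20 of 21 bases. The single difference was C19U, counted from the 5′ end with the base of miR-27a first, which lies outside the seed. No other mature mouse miRNA in the table shared that seed. The seeds of miR-23a and miR-27a matched at 6 of 7 bases and differed by U7G, with the base of miR-23a first and positions counted from the 5′ end. miR-24 has a seed of its own among the members, and 5 mature names in the table carry it, miR-24 included.

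In the same annotation, Mir23a, Mir27a and Mir24-2 follow each other on chromosome 8, called the a cluster here. Mir23b, Mir27b and Mir24-1 follow each other on chromosome 13, called the b cluster, within the span of the protein-coding gene Aopep. Mir3074-2 and Mir3074-1 overlap the a and the b cluster, respectively. The mature miR-24 of both clusters is the same RNA, so its signal could not be divided between them. The array headers name mm9, a different build, so no coordinates are given.

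The star strands differ between the clusters, which makes them the means by which miR-24 output could be told apart. They are given with the seed in capitals.
miR-24-1*: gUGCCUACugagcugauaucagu
miR-24-2*: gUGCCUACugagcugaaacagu
The array holds these and also miR-27a* and miR-27b*. None of the 4 star strands was well above background on any of the 9 arrays, so they gave no level in any group.

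Levels are given as percent of an array's scale, the 75th percentile of those probes that every array detected above background. A spot's brightness depends on its probe as well as on the amount of RNA, so levels are compared between arrays for 1 miRNA and not between miRNAs. The 9 arrays lay on 2 slides. Slide 1 held control 1 and 2, NMDA 1 and 2, and bicuculline 1, and slide 2 held the other 4 arrays. Slide, scan and version of the scanner software coincided and cannot be told apart. The miRNAs detected on an array numbered 162 to 221, and no spot was saturated.

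Of the a cluster, miR-23a, a miRNA studied for its targets in apoptosis, stood at 76.9, 82.1 and 71.9% of scale in control replicates 1, 2 and 3. It stood at 77.2, 87.9 and 74.7% in the NMDA replicates. In the bicuculline replicates it stood at 74.6, 95.1 and 74.9%. Bicuculline 2 was the highest and control 3 the lowest of the 9, and the 3 groups overlapped. The means were 77.0 ± 5.11, 79.9 ± 7.01 and 81.5 ± 11.8% (SD, n = 3 each).

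miR-27a, the other miRNA specific to the a cluster, stood at 24.9, 27.8 and 22.4% of scale in the controls. The NMDA replicates gave 28.1, 29.4 and 21.6%. The bicuculline replicates gave 25.7, 31.8 and 17.4%. Replicate 3 was the lowest of each group, and the groups overlapped. The means were 25.0 ± 2.70, 26.4 ± 4.20 and 25.0 ± 7.22% (SD, n = 3 each).

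Of the b cluster, miR-23b stood at 107.4, 111.2 and 136.4% of scale in the controls. It stood at 98.0, 104.6 and 134.0% with NMDA. With bicuculline it stood at 94.5, 126.9 and 137.8%. Replicate 3 was the highest of each group, and again the groups overlapped. The means were 118.3 ± 15.8, 112.2 ± 19.1 and 119.8 ± 22.5% (SD, n = 3 each).

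miR-27b, which carries the same seed as miR-27a, stood at 36.8, 39.9 and 45.8% of scale in the controls. The NMDA replicates gave 35.5, 38.6 and 47.3%. The bicuculline replicates gave 36.1, 43.2 and 45.6%. As for miR-23b, the third replicate was the highest in all 3 groups and the groups overlapped. The means were 40.8 ± 4.58, 40.5 ± 6.15 and 41.6 ± 4.92% (SD, n = 3 each).

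miR-24, which both clusters encode, stood at 69.2, 74.9 and 86.6% of scale in the controls. It stood at 69.8, 73.4 and 87.1% with NMDA. With bicuculline it stood at 68.5, 82.0 and 87.9%. Its highest array in each group was also replicate 3, as for miR-23b and miR-27b, and the groups overlapped. The means were 76.9 ± 8.87, 76.8 ± 9.12 and 79.5 ± 9.91% (SD, n = 3 each).

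**Figure D1:**
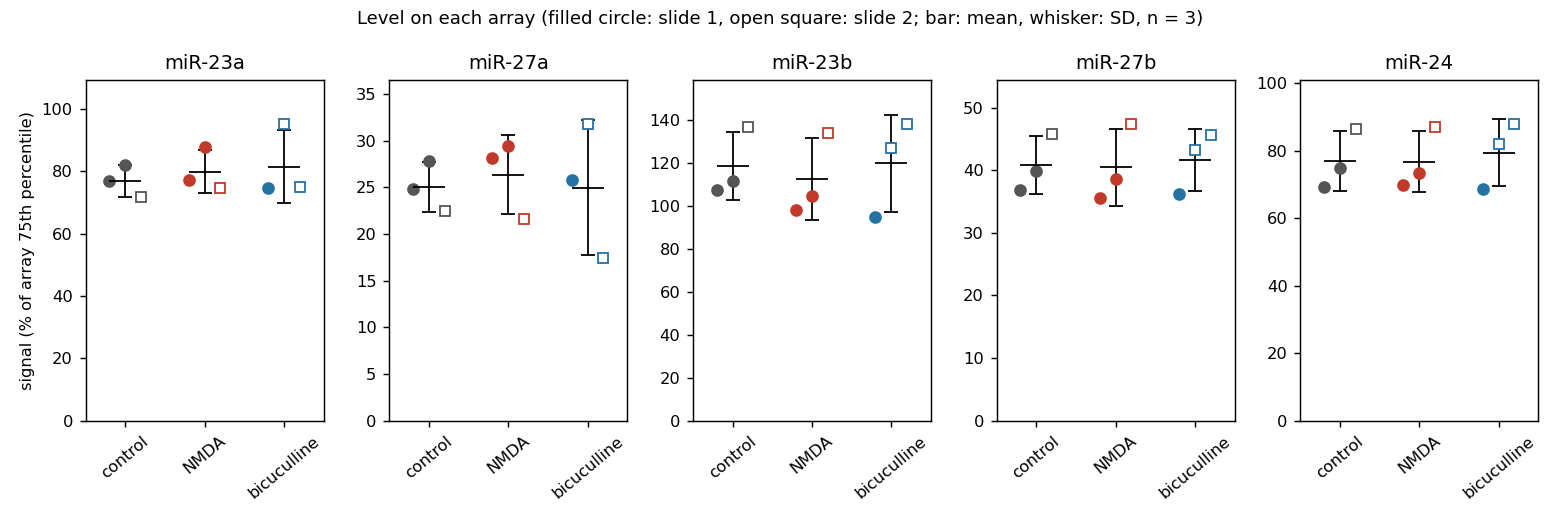
Signal of each member on each array, as percent of the array's 75th percentile, by group. Filled circles are arrays of slide 1, open squares those of slide 2, from left to right replicates 1 to 3, and bars and whiskers are the mean and SD of 3 arrays. The groups overlap in every panel, and the arrays of slide 2 are the upper ones for miR-23b, miR-27b and miR-24.

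In order of mean log2 level, bicuculline was the highest and NMDA the lowest group for miR-23b, miR-24 and miR-27b. The order was bicuculline, NMDA, control for miR-23a and NMDA, control, bicuculline for miR-27a. No order was resolved, since each step between neighbouring groups was at most 0.08 on the log2 scale, below the smallest SD of a group for the same miRNA, which ranged from 0.096 to 0.19. In cultures a change in the number of cells that hold a miRNA and a change in its amount per cell cannot be told apart.

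With NMDA against control, the question was whether toxic NMDA receptor stimulation moved the clusters. The largest positive log2 change was that of miR-27a, 0.07 (SE 0.14, 95% interval -0.26 to 0.40). The change of miR-23a was 0.05 (SE 0.097, interval -0.17 to 0.28). The change of miR-23b was -0.08 (SE 0.15, interval -0.42 to 0.26), and those of miR-24 and miR-27b were closer to 0, at -0.0024 (SE 0.12) and -0.02 (SE 0.13). In limma, with Benjamini-Hochberg adjustment over 181 tested miRNAs, adjusted p ran from 0.991 to 0.993 over the members.

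No member passed an adjusted p of 0.05 with NMDA against control, 0 of 5, where 8.29% of all miRNAs tested passed. None had an unadjusted limma p under 0.05 either, against 11% of all tested, and none had groups that did not overlap, against 14.9%. The median log2 change was -0.0024 over the members and -0.01 over all tested. Among miRNAs detected on all arrays, as the members are, 1.92% passed (3 of 156), so 0 of 5 is near the background. The miRNA with the lowest adjusted p was miR-690 (limma adjusted p = 2.937e-05), whose fitted log2 change of 2.67 depends on the floor, since all 3 control arrays were at the floor and it was well above background on 1 of them. For the members the 95% intervals ran from 0.745-fold to 1.32-fold, so changes within that range are not resolved here.

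With bicuculline against control, the question was whether synaptic activity moved the clusters. The log2 changes were 0.08 for miR-23a (SE 0.12), 0.0070 for miR-23b (SE 0.16) and 0.05 for miR-24 (SE 0.13). Those of miR-27a and miR-27b were -0.04 (SE 0.21) and 0.03 (SE 0.12). All 5 had a limma adjusted p of 0.999 over 161 miRNAs tested. Of the members 0 of 5 passed, where 0.621% of all tested did, which was miR-212 alone, an activity-induced miRNA with a fitted log2 change of 1.98 (limma adjusted p = 0.023). It was well above background on 2 of the 3 control arrays and at the floor on the other, so this size depends on the floor. None of the 5 had an unadjusted limma p under 0.05, against 1.24% of all tested, and none was without overlap, against 3.11%. Among miRNAs detected on all arrays 0% passed (0 of 156), so 0 of 5 is at the background. The median was 0.03 over the members and -0.02 over all tested, and the intervals ran from 0.698-fold to 1.35-fold.

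NMDA was also compared directly with bicuculline. The log2 differences, NMDA minus bicuculline, were -0.02 for miR-23a, -0.09 for miR-23b, -0.05 for miR-24, 0.11 for miR-27a and -0.04 for miR-27b. The limma adjusted p was 0.990 for each of them over 181 miRNAs. Of the members 0 of 5 passed, beside 8.84% of all tested and 1.92% of the miRNAs detected on all arrays, so this count too is near the background. None had an unadjusted limma p under 0.05 and none was without overlap, beside 13.3% of all tested by either measure. The intervals ran from 0.705-fold to 1.57-fold, the widest of the 3 comparisons, and miR-27a set their upper end. With the signals scaled to all probes of the array, 4 of the 5 members were called lower with NMDA (limma adjusted p 0.0098 to 0.011), at log2 differences of -0.50 to -0.57, while 79% of all miRNAs tested were called (143 of 181) and their median lay at -0.47. The 3 comparisons share their arrays in pairs.

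**Figure D2:**
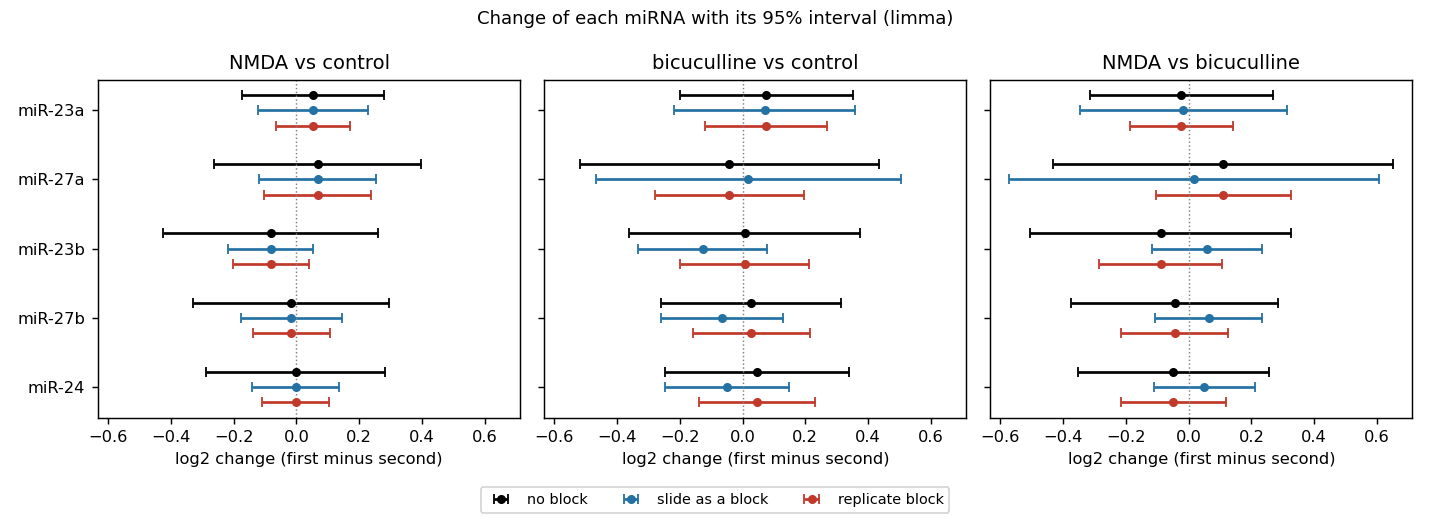
Log2 change of each member in the 3 comparisons (horizontal axis, first group minus second) with its 95% interval from limma, without a block, with slide as a block and with replicate number as a block. Every interval includes 0, and for NMDA against control the intervals are narrowest with a block.

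The arrays of a group did not lie on 1 slide, so each change was also taken with the slide, or the replicate number, as a block. For NMDA against control the replicates lay on the same slides and the changes themselves stayed as they were. The intervals of the 5 members then ran from 0.861-fold to 1.19-fold with slide as a block and from 0.869-fold to 1.18-fold with the replicate block. The limma adjusted p was at least 0.623 and 0.434, respectively. For bicuculline against control, slide as a block turned miR-23b to -0.13, miR-24 to -0.05, miR-27b to -0.06 and miR-27a to 0.02, with 0 of 5 called.

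By slide, some of the members separated. miR-23b stood between 94.5 and 111.2% of scale on slide 1 and between 126.9 and 137.8% on slide 2. miR-24 stood between 68.5 and 74.9% on slide 1 and between 82.0 and 87.9% on slide 2. miR-27b stood between 35.5 and 39.9% on slide 1 and between 43.2 and 47.3% on slide 2. These 3, the b cluster and the miRNA common to both, did not overlap between slides, as was so for 18.6% of the 156 miRNAs detected on all arrays. miR-23a and miR-27a overlapped.

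In a limma fit with group, slide 2 exceeded slide 1 by 0.40 on the log2 scale for miR-23b (SE 0.055, adjusted p = 0.0026). The excess was 0.29 for miR-24 (SE 0.051, adjusted p = 0.0066) and 0.30 for miR-27b (SE 0.054, adjusted p = 0.0066). It was -0.04 for miR-23a (SE 0.097, adjusted p = 0.825) and -0.26 for miR-27a (SE 0.16, adjusted p = 0.265). So 3 of the 5 passed where 26.3% of all miRNAs did. These 3 correlated at r = 0.97 to 0.99 over the 9 arrays, so they are not separate results. Slide 2 held bicuculline 2 and all arrays of replicate 3, so this fit cannot fully separate slide from replicate number. The separation of these 3 by slide was lost when signals were scaled to all probes or were not scaled.

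**Figure D3:**
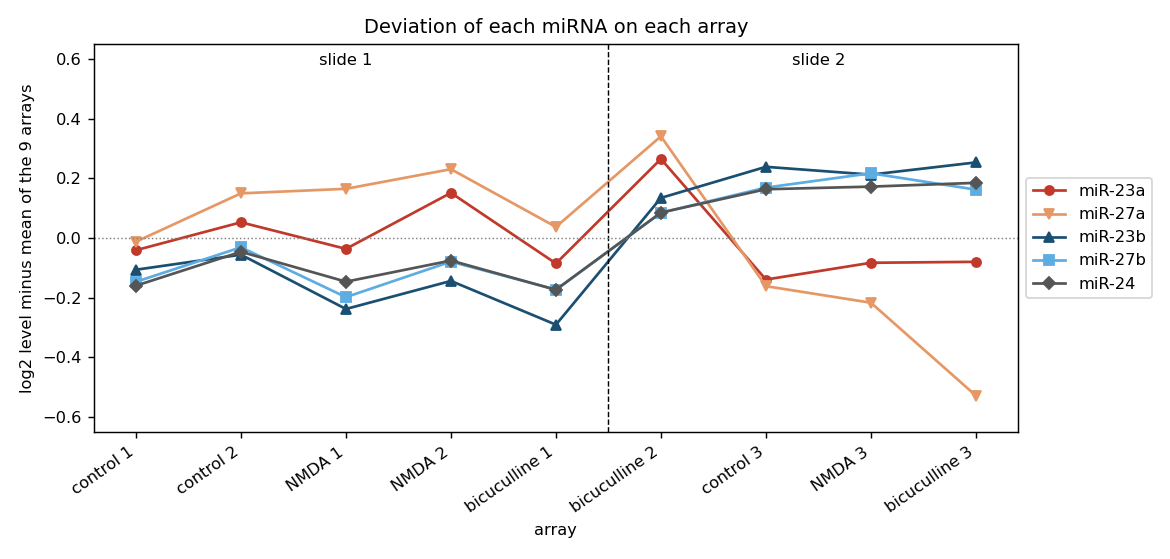
Log2 level of each member on each array minus its mean over the 9 arrays (vertical axis), with arrays ordered by slide (horizontal axis) and the slides divided by a dashed line. miR-23b, miR-27b and miR-24 run together and are higher on slide 2, whereas miR-23a and miR-27a peak on bicuculline 2 and miR-27a is lowest on bicuculline 3.

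The replicate number divided the members in another way. On the 3 arrays of replicate 3, miR-27a stood between 17.4 and 22.4% of scale, and on the other 6 between 24.9 and 31.8%. There miR-23b, miR-24 and miR-27b were higher than on all 6 others, and miR-23a overlapped. With scaling to all probes or with the total gene signal, all 5 members overlapped, and without scaling all but miR-27a did. miR-23b also overlapped with quantile normalization, and miR-24 and miR-27b with the authors' table. miR-23a was lower on replicate 3 without overlap with normexp, the authors' table and the mean of all probes. Over all miRNAs 27.6% separated replicate 3 in this way.

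The paralogs were also compared within each array, a measure from which the scaling of the array cancels. Probe sequences were not available, so how far a probe also binds the paralog of its miRNA could not be assessed. This limit holds for every comparison between the clusters here. The log2 difference of miR-23a minus miR-23b lay between -0.92 and -0.84 on the arrays of replicate 3 and between -0.48 and -0.25 on the other 6. That of miR-27a minus miR-27b lay between -1.39 and -1.03 on replicate 3 and between -0.57 and -0.34 on the others. Bicuculline 2, which lies on slide 2 with the arrays of replicate 3, was at -0.42 and -0.44 and so among the others. Since brightness depends on the probe, the sign of such a difference says nothing of which paralog was more abundant. No test is given, because the pattern was found in these arrays, and of all pairs of the 156 miRNAs 24.3% separated replicate 3 from the rest.

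**Figure D4:**
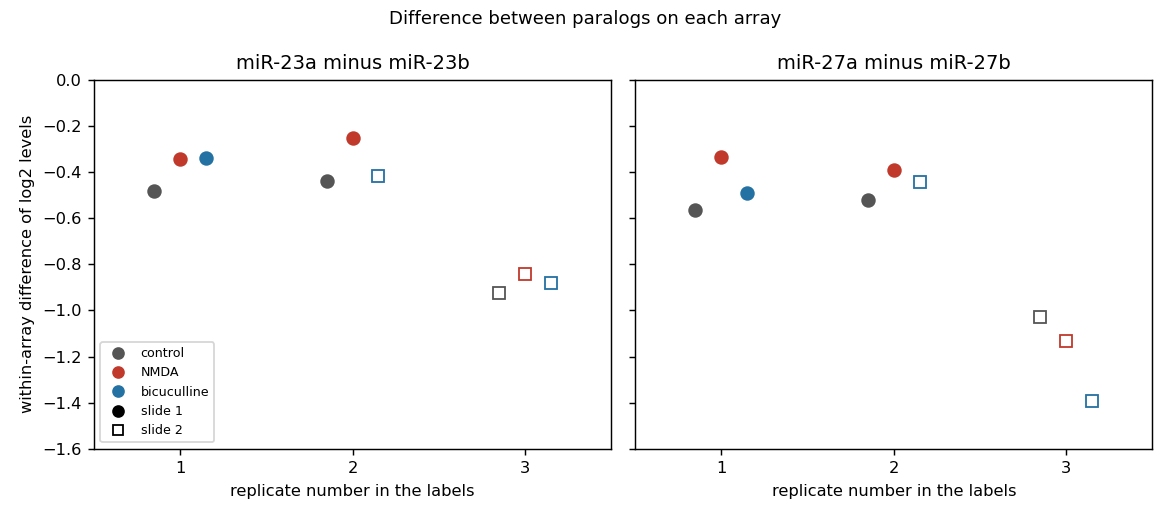
Within-array difference of log2 levels between the paralogs (vertical axis) by replicate number in the labels (horizontal axis), coloured by group, with filled circles for slide 1 and open squares for slide 2. In both panels the 3 arrays of replicate 3 lie below all 6 others, also below the slide 2 array of replicate 2.

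Each member has a second, dimmer probe on the array. Read from these, the difference of miR-23a minus miR-23b lay between -0.70 and -0.58 on replicate 3 and between -0.43 and 0.05 on the others. The difference of miR-27a minus miR-27b lay between 0.21 and 0.27 on replicate 3 and between 0.55 and 0.96 on the others. The dimmer probe of miR-27b was well above background on 6 arrays and that of miR-27a on 8, so the second difference includes signals, taken as measured, that were not above background.

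By treatment, the groups of the same differences overlapped. For miR-23a minus miR-23b the mean was -0.61 ± 0.27 in control, -0.48 ± 0.32 with NMDA and -0.55 ± 0.29 with bicuculline (SD, n = 3 each). For miR-27a minus miR-27b it was -0.71 ± 0.28, -0.62 ± 0.45 and -0.77 ± 0.53 in the same order. Within clusters, the difference of miR-23b minus miR-27b was the tightest and changed by -0.06 with NMDA (95% interval -0.16 to 0.03, two-sided exact permutation p = 0.2). Over the 8 such comparisons with control, all groups overlapped and every adjusted p was 1, by an exact permutation test that cannot go below 0.1 with 3 arrays against 3.

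Taken within same-numbered pairs of NMDA and control arrays, a replicate block chosen after the data were seen, the difference of miR-23a minus miR-23b changed by 0.14, 0.19 and 0.08. Its mean of 0.14 had a 95% interval of 0.0056 to 0.26. The difference of miR-23b minus miR-27b changed by -0.08, -0.04 and -0.07, with a mean of -0.06 and an interval of -0.12 to -0.01. Each of these differences kept its sign in all 3 pairs and their intervals, which assume normal errors, exclude 0. Both contain miR-23b, so they are not separate results, and the intervals are not adjusted over the 4 differences. The two-sided exact sign-flip permutation p was 0.25 for each, which is the smallest that 3 pairs allow, and 0.5 after adjustment over the 4 differences. The other differences, miR-27a minus miR-27b and miR-23a minus miR-27a, changed sign among the pairs.

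Over the 9 arrays, the log2 levels of miR-24 and miR-27b correlated at r = 0.99, those of miR-23b and miR-24 at 0.97 and those of miR-23b and miR-27b at 0.97. With slide means removed these were 0.90, 0.76 and 0.77. miR-23a and miR-27a correlated at 0.73, and at 0.81 with slide means removed. Between the clusters, r was -0.10 for miR-23a with miR-23b and -0.56 for miR-27a with miR-27b, or -0.097 and -0.28 with slide means removed. These are descriptions over 9 arrays on 2 slides. The median r over all pairs of miRNAs was 0.01, in which positive and negative values offset each other. For miR-24, r was -0.10 with miR-23a and -0.57 with miR-27a of the a cluster, or -0.11 and -0.35 with slide means removed.

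Among the other 151 miRNAs measured on all arrays, the one most like miR-23a was miR-365 (r = 0.90), and those next were miR-341 and miR-124 (both 0.69). For miR-23b it was miR-337-5p (0.99), before miR-652 (0.95) and let-7a (0.94). For miR-24 it was also miR-337-5p (0.98), before miR-487b (0.96) and miR-329 (0.94). For miR-27b it was miR-487b (0.98), before miR-337-5p (0.97) and miR-652 (0.92). For miR-27a it was miR-100 (0.87), before miR-34a and miR-497 (both 0.85). With slide means removed, r with miR-652 went from 0.92 to 0.12 for miR-27b and from 0.95 to 0.44 for miR-23b. The other likenesses given here then lay between 0.69 and 0.95. All were picked as the highest of 151, so their height is in part selection. These likenesses are over 9 arrays each. For miR-23a, miR-23b and miR-27a, the most alike miRNA outside the list had a higher r than any other member. For miR-24 and miR-27b the highest r was with each other. High r within a cluster was thus not particular to the clusters.

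Over the arrays miR-27a varied the most of the members, with an SD of 0.27 on the log2 scale, which was rank 15 of 156. The SD was 0.21 for miR-23b, 0.16 for miR-27b, 0.15 for miR-24 and 0.13 for miR-23a. The median SD of all 156 was 0.13.

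Because the clusters have been tied to astrocytes and vessels, marker miRNAs of other cells were read on the same arrays. All 6 neuronal markers, miR-124 and miR-9 among them, were well above background on all 9 arrays, as the label of the cultures says. So were all 5 glia-associated miRNAs, miR-21, miR-22 and the miR-29 family. Their summed level was 828.8 to 931.6% of scale in control, 800.9 to 842.4% with NMDA and 846.0 to 966.3% with bicuculline. NMDA and bicuculline did not overlap in this sum, whereas each of the 5 taken singly did. The sum adds signals of different probes, so the brightest weigh most. miR-22 was the brightest, at 329.8 to 489.6% of scale over the 9 arrays. Its log2 difference, NMDA minus bicuculline, was -0.30. Those of miR-21, miR-29a, miR-29b and miR-29c were -0.09, -0.02, -0.06 and 0.13, so no shift across the whole list is shown. Of all single miRNAs tested, 13.3% were without overlap between NMDA and bicuculline. By slide the sum was 800.9 to 846.0% on slide 1 and 842.4 to 966.3% on slide 2, and by replicate it was 842.4 to 956.0% on replicate 3 and 800.9 to 966.3% on the others. The neuronal sum was 3588 to 3642% in control, 3333 to 3591% with NMDA and 3291 to 3564% with bicuculline. Control and bicuculline did not overlap in this sum, whereas each of the 6 markers taken singly did. The brightest of the 6 were miR-9, miR-124 and miR-128. Their log2 changes, bicuculline minus control, were -0.23, 0.0022 and 0.0097, so among these bright markers only miR-9 was lower. Those of miR-137, miR-138 and miR-218, which were dimmer, were -0.09, -0.16 and -0.06. Of all single miRNAs tested, 3.11% were without overlap between these groups. By slide the neuronal sum was 3468 to 3642% on slide 1 and 3291 to 3588% on slide 2. The part of neuronal or glial content in the levels of the members was not tested.

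None of the 6 markers of microglia and blood cells was above background on any array, and their summed level was at most 5.02% of scale. Of the 4 vascular markers, the endothelial miR-126-3p was above background on 5 arrays, at no more than 8.94% of scale on any array, and the other 3 on none. Of the oligodendrocyte markers, miR-338-3p was detected on all 9 arrays and miR-219 on none. Of the 3 muscle markers, miR-1 was detected on all 9 arrays and the other two on none. Detected well enough to be tested were the 6 neuronal and 5 glia-associated miRNAs, miR-338-3p and miR-1. None of these was called in any of the 3 comparisons, nor had an unadjusted limma p under 0.05. miR-1 was without overlap in bicuculline against control (log2 change -0.17), beside 3.11% of all tested. It was also without overlap in NMDA against bicuculline (0.15), beside 13.3%. The other tested markers overlapped in all 3 comparisons. Of miRNAs detected on all arrays, 1.92% were called with NMDA against control, 0% with bicuculline against control and 1.92% with NMDA against bicuculline. The other markers, all those of microglia, blood cells and vessels among them, were not tested.

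Other families linked to neuronal death, the p53 target miR-34, miR-29 and the miR-15, miR-16, miR-195 and miR-497 group, were read in the same way. The miR-29 family is also among the glia-associated miRNAs above, so these lists are not separate. The array held all 12 listed, and 10 could be tested with NMDA against control and 9 with bicuculline against control. None was called in either comparison, 0 of 10 beside 8.29% of all tested and 0 of 9 beside 0.621%. Among miRNAs detected on all arrays, as 9 of these are, 1.92% and 0% were called, so both counts are near the background. None had an unadjusted limma p under 0.05, beside 11% and 1.24% of all tested. Their log2 changes with NMDA ran from -0.03 to 0.12, with a median of 0.02, and with bicuculline from -0.08 to 0.11, with a median of -0.0025.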

How the data were processed

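Total RNA was labelled with Cy3 and hybridised to 9 one-colour Agilent mouse miRNA arrays. For every array the authors deposited scanner output, in which the intensity of a spot had been background-subtracted by Agilent Feature Extraction (10.7.1.1 on slide 1, 10.7.3.1 on slide 2) and was not normalized between arrays. The authors also deposited a table of processed log2 values, whose normalization is not given in the sources used here and which served as an alternative.

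Each array held 13715 spots. Controls and flagged outliers (3320 non-control spots in all) were dropped, leaving 1857 probes for 650 miRNAs, 39 of them viral. A probe counted as above background if 50% or more of its spots did. The scale of an array was the 75th percentile of the 265 probes detected on every array, and signals relative to it were floored at 7.94% before log2 was taken. A miRNA was read from its brightest probe and tested if well above background on all arrays of a group compared.

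The groups of each comparison were fitted with limma 3.58.1 in R 4.3.3, two-sided, without covariates, with Benjamini-Hochberg adjustment and a threshold of 0.05. Tested on simulated data with 20 miRNAs changed by 1 log2, it recovered 100% in each comparison, with 2.68% false calls for NMDA against control (181 miRNAs), 2.91% for bicuculline against control (161) and 2.68% for NMDA against bicuculline (181). The simulation gave every miRNA the same SD and had no slide shift. It therefore does not measure how well changes as small as those of the members would be found. The number of arrays limits precision.

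Deviations of same-numbered arrays from their group means, over 156 miRNAs, correlated at 0.36, 0.76 and 0.63 for NMDA and control, so the numbers were taken to pair these arrays, although each pair also shared a slide. For bicuculline and control they correlated at 0.59, 0.085 and 0.72, and for NMDA and bicuculline at 0.62, -0.03 and 0.72, so these were not taken as pairs. The values of 0.085 and -0.03 belong to replicate 2, the only pairs whose arrays lay on different slides. A shared preparation and a shared slide therefore cannot be told apart by these correlations. Named are the members and their star strands, the 3 miRNAs most like each member and the miRNA of lowest adjusted p per comparison. The members and lists were chosen with earlier results of these data known. The alternatives were other scalings, probe summaries, the authors' table, normexp on the median spot signal (offset 50), blocks for slide or replicate, other filters, another floor, the methods' t-test, a joint fit of the 9 arrays, and leaving out each array.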

Additional observations from a re-analysis of the deposited data

How the results depend on the processing

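The count of members called stayed at 0 of 5 in every comparison under the alternatives run, except in NMDA against bicuculline with scaling to all probes, which called 4 members and 143 miRNAs in all while the median of all miRNAs tested moved to -0.47. That scaling also took the median of all to -0.43 in NMDA against control, where quantile normalization took it to -0.12. Without scaling it was -0.17 in bicuculline against control and 0.20 in NMDA against bicuculline, so changes under these settings are to be read relative to those medians. The number of miRNAs called with NMDA against control was 15, and 25 with quantile normalization, 5 with the total gene signal, 3 among miRNAs detected on all arrays and 5 without a filter. With bicuculline against control it was 1, and 0 with quantile normalization, the mean of all probes, total gene signal, miRNAs detected on all arrays, no filter, the methods' t-test, and without bicuculline replicate 1 or 2 (range 0 to 1 over the arrays left out). The replicate block, with the labels' numbers as pairs, called 2 miRNAs there and changed no member's call in any comparison. In the within-array differences of NMDA against control, for which it was chosen after seeing the data, the mean changes stayed at 0.14 for miR-23a minus miR-23b, 0.08 for miR-27a minus miR-27b, -0.01 for miR-23a minus miR-27a and -0.06 for miR-23b minus miR-27b, with an exact permutation p of at least 0.25. With NMDA against bicuculline it was 16, and 7 with total gene signal, 3 among miRNAs detected on all arrays, 8 without a filter and 10 with the methods' t-test. The changes of the members were not called, so their direction was unresolved and turned under several settings. With scaling to all probes, the log2 change was -0.43 for the member median, -0.37 for miR-23a and -0.36 for miR-27a (NMDA against control), 0.013 for miR-27a (bicuculline against control), -0.52 for the member median and -0.37 for miR-27a (NMDA against bicuculline). With scaling to the median, the log2 change was 0.0093 for miR-27a (bicuculline against control). With quantile normalization, the log2 change was -0.12 for the member median, -0.14 for miR-27a, 0.14 for miR-23a minus miR-27a and 0.021 for miR-23b minus miR-27b (NMDA against control), -0.0091 for miR-23b (bicuculline against control), -0.11 for miR-27a (NMDA against bicuculline). Without scaling, the log2 change was 0.059 for miR-24 and 0.044 for miR-27b (NMDA against control), -0.12 for the member median, -0.072 for miR-23a, -0.14 for miR-23b, -0.10 for miR-24 and -0.12 for miR-27b (bicuculline against control), 0.16 for the member median, 0.19 for miR-23a, 0.12 for miR-23b, 0.16 for miR-24 and 0.16 for miR-27b (NMDA against bicuculline). With the total gene signal, the log2 change was 0.019 for miR-24, 0.0030 for miR-27b and 0.016 for miR-23a minus miR-27a (NMDA against control), 0.19 for the member median and 0.13 for miR-27a (bicuculline against control), -0.18 for the member median and -0.060 for miR-27a (NMDA against bicuculline). With the mean of all probes, the log2 change was 0.016 for miR-23a minus miR-27a (NMDA against control), -0.0031 for miR-23b (bicuculline against control), 0.024 for miR-23a (NMDA against bicuculline). With the authors' table, the log2 change was -0.013 for miR-23a, -0.067 for miR-27a, -0.0033 for miR-27a minus miR-27b and 0.053 for miR-23a minus miR-27a (NMDA against control), 0.0033 for miR-27a, -0.020 for miR-23a minus miR-23b and 0.020 for miR-23b minus miR-27b (bicuculline against control), -0.070 for miR-27a (NMDA against bicuculline). With normexp, the log2 change was 0.034 for miR-27a (bicuculline against control). With slide as a block, the log2 change was -0.13 for miR-23b, -0.050 for miR-24, 0.018 for miR-27a and -0.065 for miR-27b (bicuculline against control), 0.059 for miR-23b, 0.050 for miR-24 and 0.064 for miR-27b (NMDA against bicuculline). Leaving out each array in turn gave log2 changes, for NMDA against control from -0.097 to 0.063 for the member median, -0.017 to 0.10 for miR-23a, -0.22 to 0.025 for miR-23b, -0.097 to 0.086 for miR-24, -0.018 to 0.21 for miR-27a, -0.14 to 0.072 for miR-27b, -0.020 to 0.32 for miR-23a minus miR-23b, -0.078 to 0.34 for miR-27a minus miR-27b and -0.11 to 0.062 for miR-23a minus miR-27a. It gave, for bicuculline against control from -0.040 to 0.14 for miR-23a, -0.10 to 0.17 for miR-23b, -0.030 to 0.15 for miR-24, -0.24 to 0.20 for miR-27a, -0.044 to 0.13 for miR-27b, -0.086 to 0.24 for miR-23a minus miR-23b, -0.24 to 0.24 for miR-27a minus miR-27b, -0.065 to 0.22 for miR-23a minus miR-27a and -0.062 to 0.042 for miR-23b minus miR-27b. It gave, for NMDA against bicuculline from -0.093 to 0.093 for miR-23a, -0.25 to 0.022 for miR-23b, -0.15 to 0.028 for miR-24, -0.13 to 0.31 for miR-27a and -0.16 to 0.044 for miR-27b. The cause of these shifts was not tested. Without NMDA replicate 3 the member median of NMDA against control was -0.10.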
